A study of Mus musculus with 8 samples.

Results

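The Usp17l genes of the mouse encode a small family of ubiquitin-specific proteases, and 5 of them, Usp17la, Usp17lb, Usp17lc, Usp17ld and Usp17le, were found by symbol among the 46078 genes of a count table of fully grown germinal vesicle (GV)-stage oocytes. They were selected on their counts in CNOT7&8 KO oocytes, which stood far above those in control oocytes, so their difference between the genotypes is described below without a test and supports nothing by itself. CNOT7 and CNOT8 are the paralogous CAF1-type deadenylase subunits of the CCR4-NOT complex, which shortens poly(A) tails of mRNAs. The KO females carried floxed Cnot7 and Cnot8 alleles together with the Zp3-Cre transgene, and the controls are labelled Zp3-Cre. Both groups therefore share the transgene, whose Zp3 promoter drives the recombinase in growing oocytes and leaves granulosa cells with intact alleles. Females were 4 weeks old, had a C57BL/6J background and received PMSG before collection. Each group held 4 libraries, each made from 100 pooled oocytes, and the labels do not tie libraries to animals, so the spread between them may be partly technical.

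Ubiquitin-specific proteases are cysteine proteases that take ubiquitin off proteins and so can spare them from the proteasome or end a signal. The mouse Usp17l genes were first known as DUB genes, short-lived immediate-early genes that interleukins induce in lymphocytes, and their human counterpart is USP17. In early development, transcripts of the family belong to the set that mouse embryos make for a short time around the 2-cell stage, when the embryonic genome is switched on. RefSeq lists Dub1 as a synonym of Usp17la, Dub1a of Usp17lb, Dub2 of Usp17lc, Dub2a of Usp17ld and Dub3 of Usp17le.

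Libraries held from 14943671 to 44092144 counts in control and from 8639444 to 26784110 in KO oocytes, and levels below are CPM, the count of a gene over the TMM-scaled total of its library. Genes were called upregulated or downregulated by edgeR's quasi-likelihood test where the adjusted p reached 0.05 and the change was 2-fold or more. The fit covered the 19241 genes that had 0.2 CPM or more in 2 libraries. Under this rule 23.8% of the tested genes were upregulated in KO oocytes and 6.56% downregulated. Of all calls, 78.4% were upregulations with TMM, against 90.6% with library size alone and 89.7% with TMM on genes of at least 10 CPM. The median log2 fold change of all tested genes was 0.12, and these last scalings raised it by 0.29 and 0.25. The targeted genes were checked first. Cnot8 fell from 168 ± 20.0 to 35.2 ± 1.40 CPM (SD, n = 4 each), a log2 fold change of -2.25 (SE 0.12, adjusted p = 8.2e-08, edgeR). Cnot7 went from 933 ± 77.3 to 719 ± 70.8 CPM (SD, n = 4 each), a log2 fold change of -0.38 (SE 0.11, adjusted p = 0.0105, edgeR), which was under 2-fold and shrank to -0.09 with library size alone. Which exons were deleted was not analysed here, so transcripts that keep the rest of Cnot7 are counted too.

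Usp17lb was the most abundant member in KO oocytes. Its counts were 16, 2, 4 and 1 in control replicates 1 to 4 and 737, 1474, 5168 and 9712 in KO replicates 1 to 4. In CPM these were 0.428, 0.0987, 0.272 and 0.0728 in control and 80.0, 80.9, 319 and 331 in KO libraries. The groups did not overlap, as the lowest KO library stood 187-fold above the highest control library, and KO replicates 3 and 4 were far above KO replicates 1 and 2. The group means were 0.218 ± 0.166 and 203 ± 141 CPM (SD, n = 4 each), a ratio of 930, with a fitted log2 fold change of 9.58 (SE 0.70). All 5 members passed the thresholds for upregulation and had every KO library above every control library, as did 23.8% and 27.0% of all tested genes, respectively. None was downregulated (6.56% of all tested genes), and none had every KO library below every control library (21.4%). Nothing is read from these counts because the same contrast chose the members. In such bulk libraries a larger number of expressing oocytes and more RNA per oocyte cannot be told apart.

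Usp17lc and Usp17le came next. Usp17lc had 9, 2, 5 and 0 counts in the control libraries and 164, 303, 1005 and 2057 in KO replicates 1 to 4, which made 17.8, 16.6, 62.0 and 70.0 CPM in the latter. Its mean rose from 0.17 ± 0.15 to 41.6 ± 28.4 CPM (SD, n = 4 each), a ratio of 245, with a fitted log2 fold change of 7.79 (SE 0.68). The groups were again apart, by 48.9-fold between the nearest libraries, and the same KO libraries were high.
Usp17le was the member with the most counts in control oocytes, with 29, 10, 3 and 3. In KO replicates 1 to 4 it had 80, 90, 592 and 1702 counts, or 8.68, 4.94, 36.5 and 58.0 CPM. The means were 0.423 ± 0.27 and 27.0 ± 25.0 CPM (SD, n = 4 each), a ratio of 63.9, with a fitted log2 fold change of 5.79 (SE 0.79). Here the nearest libraries of the groups were 6.38-fold apart, the smallest distance among the 3 members with counts in control oocytes.

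Usp17la and Usp17ld had no count in any control library. Usp17la had 31, 53, 268 and 730 counts in KO replicates 1 to 4, or 3.37, 2.91, 16.5 and 24.9 CPM, with a mean of 11.9 ± 10.7 CPM (SD, n = 4). Usp17ld had 7, 3, 42 and 312 counts, or 0.76, 0.165, 2.59 and 10.6 CPM, with a mean of 3.53 ± 4.84 CPM (SD, n = 4). KO replicate 4 held most of the Usp17ld counts, and KO replicate 2 had no more than the detection floor. That floor was set at 3 counts, which corresponded to 0.163 CPM on average over the control libraries and covers counting error only, since PCR copies are not independent molecules. Against it, the KO means were at least 73.2-fold higher for Usp17la and at least 21.7-fold higher for Usp17ld. KO replicate 4 weighed on these means and on that of Usp17le. Without it they were 1.16 CPM for Usp17ld, 7.55 CPM for Usp17la and 16.6 CPM for Usp17le.

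**Figure D1:**
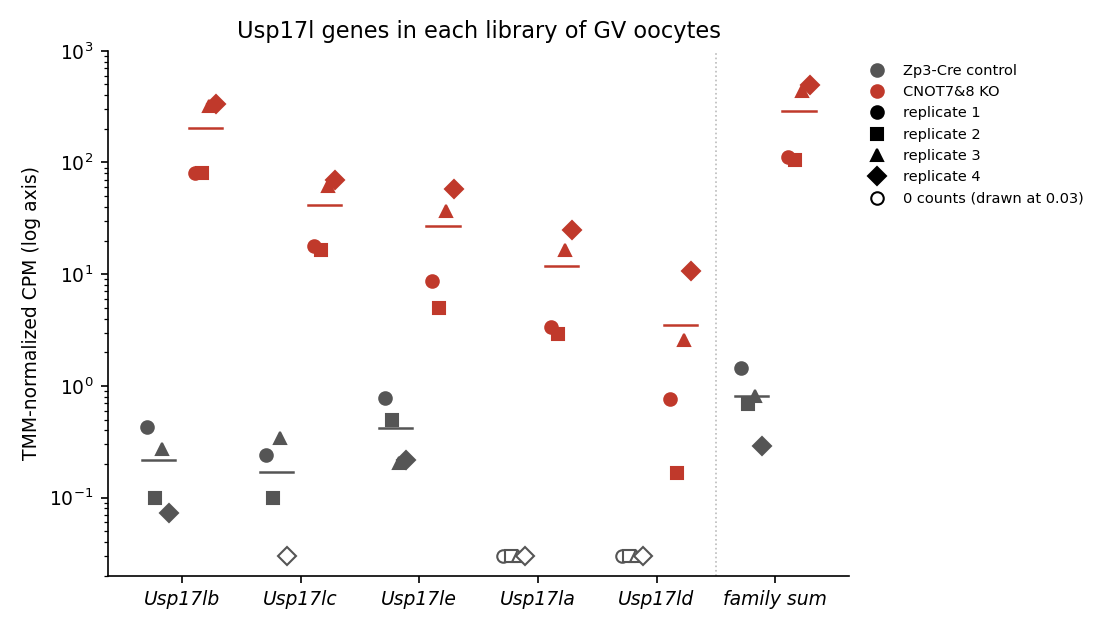
TMM-normalized CPM of the 5 Usp17l genes and of their sum in each library, on a log axis. Grey symbols are control and red symbols KO libraries, the shape gives the replicate, lines are group means, and open symbols are libraries with 0 counts, drawn at 0.03. For each gene the KO symbols lie above the control symbols, and KO replicates 3 and 4 lie above KO replicates 1 and 2.

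Summed over the family, the control libraries had 54, 14, 12 and 4 counts and the KO libraries 1019, 1923, 7075 and 14513. This made 0.81 ± 0.478 CPM in control (range 0.291 to 1.44) and 287 ± 208 CPM in KO oocytes (range 106 to 494; SD, n = 4 each), a ratio of 354, and the nearest libraries of the groups were 73.2-fold apart. The KO libraries fell into a lower and a higher pair. KO replicates 1 and 2 differed 1.05-fold and KO replicates 3 and 4 1.13-fold, whereas the other 4 pairings differed from 3.94- to 4.68-fold. Counting error was small beside this gap, at 3.13% of the lowest KO family count. KO replicates 1 to 4 held 8639444, 16432525, 14210736 and 26784110 counts in all. Whether depth bears on the gap was not tested.

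The spread of the family within the KO group was wide for its level. Its coefficient of variation over the 4 KO libraries was 72.4%, against a median of 12.3% over the 8834 tested genes with a KO mean of at least 10 CPM, and 0.317% of these genes varied as much or more. The highest KO library was 4.68 times the lowest, against a median of 1.32 over the same genes, a ratio that 0.532% of them reached. The genes that varied as much or more include the members Usp17la and Usp17le, with coefficients of 89.7% and 92.4%. Genes of the 2-cell stage were among them too, such as Gm8300 (18.3 ± 21.4 CPM) and Gm2022 (18.4 ± 15.2 CPM; SD, n = 4 KO libraries each). The order itself was less rare, as both KO replicates 3 and 4 were above both KO replicates 1 and 2 for 19.7% of the 8834 genes. Summed marker levels did not have the family's order. Summed granulosa and cumulus cell markers, 12 genes, had from 120 to 157 CPM in control and 264, 258, 219 and 220 CPM in KO replicates 1 to 4. Of the 11 tested markers 6 (54.5%) were upregulated, against 23.8% of all tested genes. The rise of the granulosa sum lay mostly in Nr5a2 (56.6 to 122 CPM) and Ptgs2 (2.94 to 36.7 CPM). Inha (6.86 to 25.9 CPM), Fst (1.58 to 7.51 CPM), Fshr (1.29 to 3.87 CPM) and Inhba (2.49 to 5.5 CPM) were upregulated too. Inha, Fst and Inhba were lowest in KO replicate 4 within the KO group. Cyp19a1 went from 58.4 to 31.3 CPM and Amh from 0.765 to 0.34 CPM, and neither was past the thresholds. Summed leukocyte markers, 10 genes that include Ptprc and Cd3e, had from 3.21 to 3.79 CPM in control and 6.95, 5.11, 6.47 and 6.40 CPM in KO replicates 1 to 4. Of the 5 tested leukocyte markers 2 (40.0%) were upregulated, against 23.8% of all tested genes, which says little for a list of this size. No marker of either list was at 0 in all libraries. All 10 oocyte markers were present, with a sum of 18400 to 21500 CPM in control and of 16500, 17300, 15000 and 14900 CPM in KO replicates 1 to 4. The granulosa and oocyte sums were lower in KO replicates 3 and 4 than in KO replicates 1 and 2, and whether this bears on the family's levels was not tested.

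Levels of different genes can be set side by side only per length. Per kilobase of the longest annotated transcript, Usp17lb had 130 ± 90.6 CPM in KO oocytes, Usp17lc 17.3 ± 11.8, Usp17le 14.3 ± 13.2, Usp17la 4.49 ± 4.03 and Usp17ld 1.78 ± 2.43 (SD, n = 4 each). Usp17lb stood above the rest in every KO library. Usp17lc and Usp17le were not separable, since Usp17lc was higher in KO replicates 1 to 3, with 7.41, 6.92 and 25.8 CPM per kilobase against 4.61, 2.62 and 19.4, and lower in KO replicate 4, with 29.1 against 30.7. Per kilobase of coding sequence the order of the means was the same, from 145 CPM for Usp17lb through 25.5, 16.7 and 7.55 to 2.16 for Usp17ld. In control oocytes the order was another, with Usp17le at 0.224 ± 0.143, Usp17lb at 0.14 ± 0.106 and Usp17lc at 0.0707 ± 0.0626 CPM per kilobase of transcript, but neighbours in this order differed by less than the larger of their SDs.

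The pooled family count was led by Usp17lb in KO and by Usp17le in control oocytes. In the pooled KO libraries Usp17lb made up 69.7% of 24530 counts (95% Wilson interval 69.1 to 70.2), Usp17lc 14.4%, Usp17le 10%, Usp17la 4.41% and Usp17ld 1.48%. In the pooled control libraries Usp17le made up 53.6% of 84 counts (95% Wilson interval 43.0 to 63.8), Usp17lb 27.4% (19.0 to 37.7) and Usp17lc 19.0% (12.1 to 28.7). For Usp17la and Usp17ld, 0 of 84 counts allowed a share of up to 4.37% each (upper Wilson bound).
The KO shares of Usp17lc and Usp17ld lay within their control intervals, and that of Usp17la, at 4.41%, was just above its bound of 4.37%. The intervals cover counting error only. Across the KO libraries the share of Usp17lc was steady, from 14.2% to 16.1%, and that of Usp17lb lay between 66.9% and 76.7%. The share of Usp17le was 7.85%, 4.68%, 8.37% and 11.7% in KO replicates 1 to 4, and that of Usp17ld was 0.687%, 0.156%, 0.594% and 2.15%. For both, KO replicate 2 was lowest and KO replicate 4 highest, and the 95% Wilson intervals of these libraries did not meet, with 3.82 to 5.72% against 11.2 to 12.3% for Usp17le and 0.0531 to 0.458% against 1.93 to 2.40% for Usp17ld. In control libraries, with 4 to 54 family counts each, Usp17le ranged from 25% to 75%. In control replicate 3, Usp17lc (41.7%) and Usp17lb (33.3%) were above it, and control replicate 1 gave 54 of the 84 pooled counts.

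**Figure D2:**
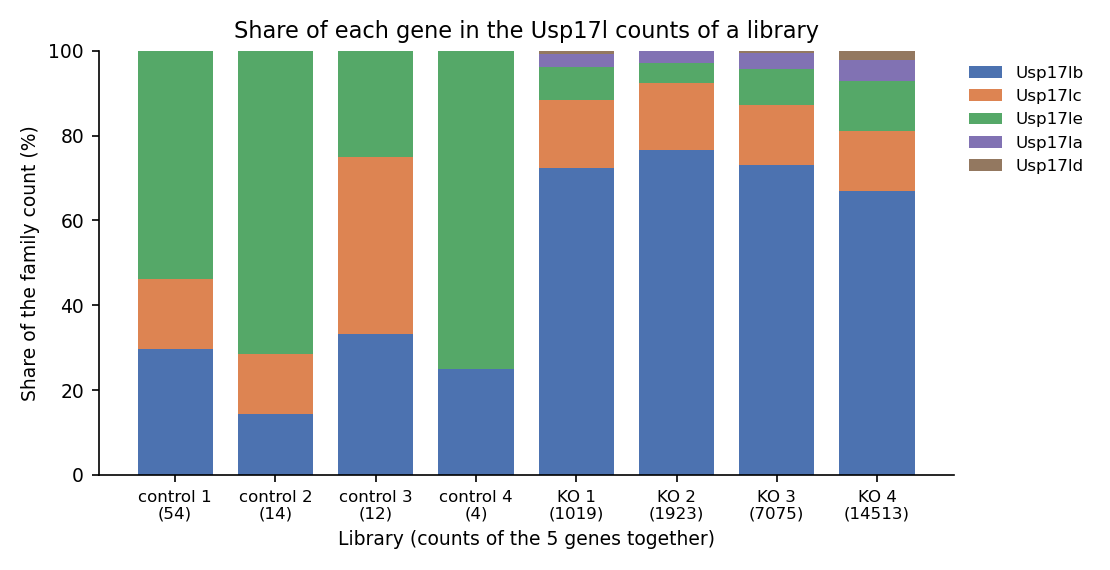
Share of each gene in the Usp17l counts of a library, as stacked bars that add up to 100%, with the number of counts under each library. Usp17lb (blue) makes up 66.9 to 76.7% of the bar in the 4 KO libraries, while in control libraries, with 4 to 54 counts, Usp17le (green) makes up 25 to 75%.

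All 5 genes lie on chromosome 7 and were mapped with the GENCODE annotation of GRCm38. In order, these are Usp17ld (ENSMUSG00000057321, chr7:103249737-103252505, minus strand), Usp17lc (ENSMUSG00000058976, chr7:103415072-103419880, plus strand), Usp17le (ENSMUSG00000043073, chr7:104768049-104777470, minus strand), Usp17lb (ENSMUSG00000062369, chr7:104840257-104842603, minus strand) and Usp17la (ENSMUSG00000054568, chr7:104857009-104862667, plus strand). They form 2 groups, Usp17ld and Usp17lc 162.6 kb apart, and Usp17le, Usp17lb and Usp17la with gaps of 62.8 and 14.4 kb, with 1348.2 kb between the groups. Genes high in KO oocytes were thus found in both groups and on both strands. The genes are compact, with 2 or 3 exons and between 1401 coding bases in Usp17lb and 1635 in Usp17lc and Usp17ld.

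The coding sequences are close copies of each other. Usp17lc and Usp17ld share 98.4% of aligned coding bases, Usp17la and Usp17le 94.7%, and Usp17lb is the most distant, with 90.7 to 91.4% to the other 4. This bears on the counts, because the study's counter, its strand setting and its treatment of reads that match several genes are not given in the sources used here. Of all 150-base windows of the longest transcript, the length of 1 read, 36.1% in Usp17ld and 29.4% in Usp17lc also occur without a mismatch in another gene of the family, against 2.3% in Usp17lb, 1.3% in Usp17la and 0.8% in Usp17le. The split of counts between Usp17lc and Usp17ld is therefore the least certain, and the family sum does not depend on that split, but it would be too low if reads that match several genes were left out of the counts. The pseudogene Usp17le-ps (ENSMUSG00000082084, listed under the symbol Usp-ps) had 1 count in control replicate 3, had 0 in the other 7 libraries and was not tested.

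The stretch around the catalytic cysteine shows how alike the copies are. The 30 coding bases of this Cys box, read from the annotated transcripts, are given with the cysteine codon in capitals.
Usp17la: ggcaacagcTGCtacctgaatgcagccctg
Usp17lb: ggcaacagcTGCtacctgaatgcagccctg
Usp17lc: ggcaacagcTGCtacctgaatgcagccctg
Usp17ld: ggcaacagcTGCtacctgaatgcagccctg
Usp17le: ggcaacagcTGCtacctgaacgcagccctg
The stretch was found once in each gene, with the codon at coding bases 178 to 180 in Usp17la, Usp17lc and Usp17ld, 175 to 177 in Usp17lb and 280 to 282 in Usp17le. It was identical in all members but Usp17le.

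The members also share sequence around their RefSeq starts, which differ from the GENCODE starts used for the positions above. RefSeq promoter windows of GRCm38.p6, 300 bases around the RefSeq start, were at hand for 4 of the 5 genes, all but Usp17le. The aligned 30-base stretches that hold the TATA-like box, given in capitals, show how far the copies agree there.
Usp17la, chr7:104856961-104856990, plus strand: agactggagTTTAAAagactgagcatttgt
Usp17lb, chr7:104842594-104842623, minus strand: aaactgaagTATAAAaggctgagcatttgt
Usp17lc, chr7:103416599-103416628, plus strand: agactggagTATAAAagactgagcatttgt
Usp17ld, chr7:103252595-103252624, minus strand: agactggagTATAAAagactgagcatttgt
Usp17lc and Usp17ld are the same over this stretch, and the box reads TATAAA in all but Usp17la. The box begins 46, 31, 88 and 110 bases before the RefSeq start of Usp17la, Usp17lb, Usp17lc and Usp17ld. The RefSeq starts are therefore not at 1 common place relative to it. On the GENCODE annotation, the stretch of Usp17lc lies inside the gene, after the start of its longest transcript, and that of Usp17lb overlaps the first bases of the gene. TATAAA, searched on both strands, occurs in 13.6% of 32851 RefSeq promoters of this length. The palindromic motif of the 2-cell stage factor DUX, searched the same way, was in none of the 4 promoters and in 0.207% of all of them. A match is no proof of a site, and no match says only that these letters are not in the window.

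The 3′ untranslated regions (3′UTRs) of the family are short in the GENCODE annotation, and whether these models are complete was not tested. The 3′UTRs measured 897 bases in Usp17la, 743 in Usp17lc, 349 in Usp17ld, 262 in Usp17le and 55 in Usp17lb. The longest 3′UTR of tested protein-coding genes had a median of 1273 bases. Only genes with at least 50 annotated 3′UTR bases were used for this comparison and those below. UUUUAU, the core of the cytoplasmic polyadenylation element, was in none of the 5 and in 56.2% of 15167 tested protein-coding genes. UGUAAAUA, the Pumilio motif, was also in none of the 5 and in 11.9% of those genes. AUUUA, the core of AU-rich elements, occurred 2 times each in Usp17la and Usp17lc, was not found in the other 3, and was present in 70.4% of the tested genes. Searches used the sense strand and the longest annotated 3′UTR, and the short length leaves fewer places for a match.

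The neighbourhood of the family was examined next, because position was not used to pick the members, although the contrast was. Within 500 kb of a member lie 136 other genes of the table, 102 of them olfactory receptor genes by symbol, and 77 had no count in any library. Of the 24 tested, 16 (66.7%) were upregulated and none downregulated, against 23.8% and 6.56% of all tested genes. The filter of 0.2 CPM in 2 libraries can be met by KO libraries alone, so it favours genes high in KO oocytes. The 6 genes at 0 in every control library met it that way and were all called upregulated. Nothing is therefore read from the share. The median log2 fold change of the 24 was 1.75 with those 6 genes set to the bound that the floor allows, and 3.08 as fitted. Most were near the detection floor. Of the 15 with a mean under 1 CPM over both groups, 10 were upregulated, as were 35.5% of the 5483 tested genes at that level. Where 4 libraries had to reach 1 CPM, 7 upregulated neighbours remained. The 4 KO libraries alone can meet that rule, so it favours genes high in KO oocytes and nothing is read from this number.

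The neighbours named here were singled out after their values were seen. Around Usp17ld and Usp17lc, Gm25774, an annotated miRNA gene in an intron of Usp17lc on the same strand, had 0 counts in every control library and 13, 14, 66 and 172 in KO replicates 1 to 4, and its reads and those of unspliced Usp17lc RNA cannot be told apart. Gm25171, another annotated miRNA gene 8.4 kb from Usp17ld, had 0 counts in control and 1, 10, 11 and 39 in KO libraries. Olfr602-ps1, an olfactory receptor pseudogene 42.6 kb from Usp17lc, rose from 0.353 ± 0.199 to 3.64 ± 1.03 CPM (SD, n = 4 each; adjusted p = 2.8e-05, edgeR).
Toward Usp17le lies a cluster of Trim genes, whose human relative TRIM5 restricts retroviruses. Trim12c, 414.7 kb from Usp17le, rose from 11.0 ± 2.46 to 60.9 ± 16.4 CPM (SD, n = 4 each), a log2 fold change of 2.46 (SE 0.21, adjusted p = 2.47e-06, edgeR). Trim12a and Trim5 rose by 4.02 (SE 0.30) and 4.84 (SE 0.61) on the log2 scale. Closer to Usp17le, Trim30a and Trim30d were not past the thresholds, with log2 fold changes of 0.33 (SE 0.21) and -0.65 (SE 0.20). Not every gene of the region was thus called.

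**Figure D3:**
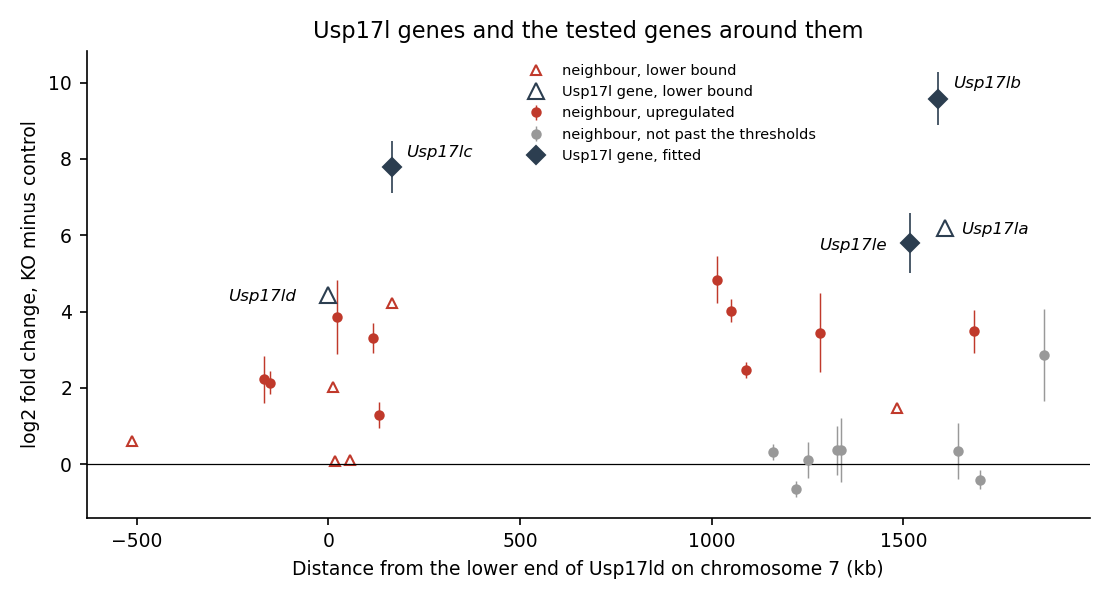
Log2 fold change of the Usp17l genes (dark) and of the 24 tested genes within 500 kb of them (red, upregulated; grey, not past the thresholds) against the distance from Usp17ld in kb. Bars are standard errors, and triangles are lower bounds for genes with 0 counts in every control library. Upregulated genes surround both groups of Usp17l genes, and the genes not past the thresholds lie nearer to Usp17le and Usp17la than to Usp17lc.

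Deubiquitinase genes outside the family, listed by enzyme class, were tested in the fit across all genes. The list of other ubiquitin-specific proteases and their relatives had 51 tested genes, of which 6 (11.8%) were upregulated and 2 (3.92%) downregulated, against 23.8% and 6.56% of all tested genes. Their median log2 fold change was -0.22, against 0.12 for all tested genes. With the adjusted p alone, 15 of the 51 were higher and 23 lower in KO oocytes, so most of these differences were under 2-fold. By the same rule, 5997 of all 19241 tested genes were higher and 4631 lower. The widest upward fold change was that of Usp18, which removes the ubiquitin-like modifier ISG15, but it rested on 2 counts in control and 25 in KO libraries. The ratio of these pooled levels was 14.7 (95% exact counting interval 3.68 to 128), and 15 of the 25 counts came from KO replicate 2.
Usp25, a protease with a role in cytokine signalling, rose from 1.29 ± 0.393 to 10.4 ± 1.76 CPM (SD, n = 4 each), a log2 fold change of 2.97 (SE 0.25, adjusted p = 1.79e-06, edgeR). Uspl1, which acts on SUMO rather than ubiquitin, rose from 17.9 ± 4.36 to 126 ± 29 CPM, a log2 fold change of 2.81 (SE 0.21, adjusted p = 8.03e-07, edgeR). Its KO values of 108, 94.6, 150 and 151 CPM in replicates 1 to 4 were spread far less than those of the Usp17l genes. The other upregulated genes were Usp44, a brake on the anaphase-promoting complex, with a log2 fold change of 1.68 (SE 0.38), Usp22, the histone H2B deubiquitinase of the SAGA complex, with 1.38 (SE 0.16), and Usp26, an X-linked germ cell gene, with 1.34 (SE 0.18).

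The downregulated proteases were abundant ones. Usp15, which acts on TGF-β receptor signalling, had 761, 537, 530 and 534 CPM in control replicates 1 to 4 and 138, 159, 123 and 160 CPM in KO replicates 1 to 4, a log2 fold change of -2.02 (SE 0.15, adjusted p = 6.78e-07, edgeR). Usp46, which works with the cofactor UAF1, fell from 1310 ± 170 to 474 ± 72.9 CPM (SD, n = 4 each), a log2 fold change of -1.46 (SE 0.14, adjusted p = 4.17e-06, edgeR). These 8 calls held under each of 4 other scalings.

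Of 39 tested deubiquitinases of other families, 4 (10.3%) were upregulated and 1 (2.56%) downregulated, against 23.8% and 6.56% of all tested genes. The 39 had a median log2 fold change of -0.26, against 0.12 for all tested genes. Stambpl1, an endosomal metalloprotease that cuts K63-linked ubiquitin chains, had 0.561, 1.13, 0.816 and 0.583 CPM in control replicates 1 to 4 and 46.9, 46.0, 45.6 and 50.8 CPM in KO replicates 1 to 4, a log2 fold change of 5.95 (SE 0.22, adjusted p = 1.01e-08, edgeR). Its fold change was thus near that fitted for Usp17le, but its KO libraries were nearly equal. Otud7b, which cuts K11-linked chains, rose from 12 ± 2.48 to 51.5 ± 5.35 CPM (SD, n = 4 each), a log2 fold change of 2.09 (SE 0.16). Yod1, a partner of the p97 segregase, and Fam63b, also named MINDY2, rose by 2.05 (SE 0.57) and 1.36 (SE 0.29) on the log2 scale. Zufsp, a K63-specific protease linked to DNA repair, fell from 125 ± 23.2 to 55.9 ± 8.50 CPM, a log2 fold change of -1.16 (SE 0.15), which was under 2-fold with library size alone (-0.87) and with TMM on genes of at least 10 CPM (-0.90).

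**Figure D4:**
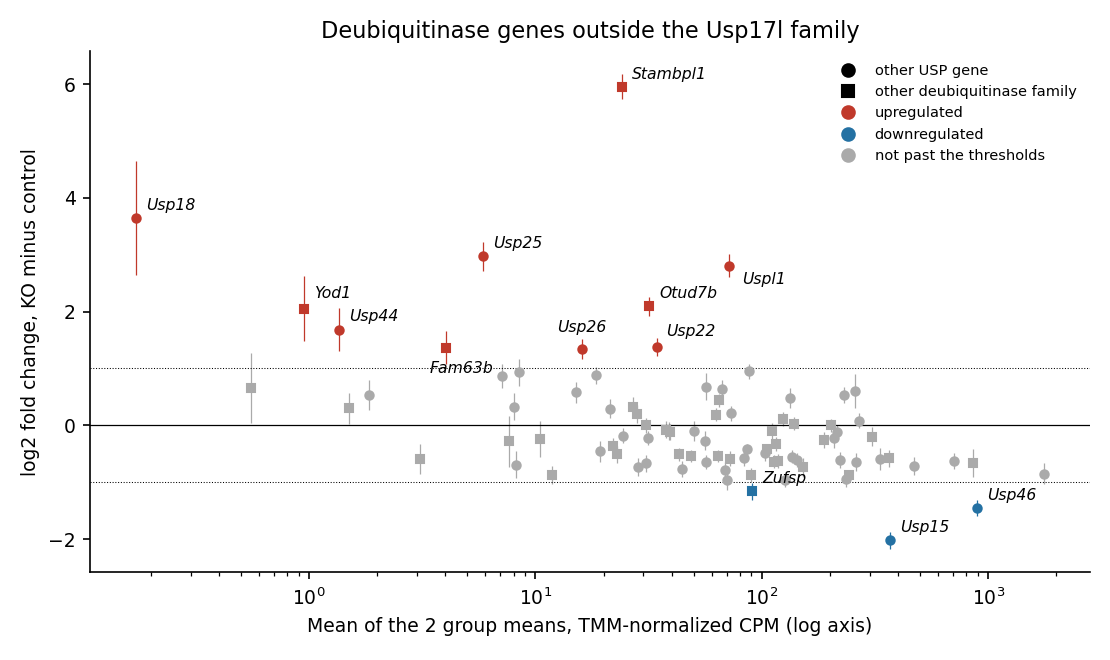
Log2 fold change of 51 other ubiquitin-specific protease genes (circles) and 39 genes of other deubiquitinase families (squares) against the mean level in CPM, on a log axis. Bars are standard errors, dotted lines mark 2-fold, red and blue mark upregulated and downregulated genes, and only those are named. Stambpl1 stands apart at 5.95, and most genes lie between the dotted lines.

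Genes that act with the proteins of the family were compared as well. Among 8 tested genes for known or proposed substrates of human USP17 or its mouse relatives, Ifih1 was upregulated and Rce1 downregulated. These shares of 12.5% each stood against 23.8% and 6.56% of all tested genes and say little for a list of this size. Ifih1, the double-stranded RNA sensor MDA5, rose from 0.0678 ± 0.0666 to 1.90 ± 0.708 CPM (SD, n = 4 each; adjusted p = 2.39e-05, edgeR). It had 1.41, 1.37, 1.91 and 2.89 CPM in KO replicates 1 to 4. In control replicates 1 to 4 it had 1, 2, 0 and 2 counts, each under the floor of 3, so its fold change is uncertain. Rce1, the protease that trims CAAX proteins such as RAS, fell from 42.4 ± 7.37 to 18.8 ± 2.77 CPM, a log2 fold change of -1.18 (SE 0.16, adjusted p = 8.75e-05, edgeR) that was -0.90 with library size alone. Cdc25a, Suds3, Ddx58, Snai1 and Has2 were not past the thresholds. Of the interleukin receptor chains, JAK kinases and STAT5 factors that act upstream of the DUB genes in lymphocytes, 7 of 11 were tested. Il2rb, the β chain of the IL-2 receptor, fell from 29 ± 2.04 to 9.52 ± 0.607 CPM (SD, n = 4 each), a log2 fold change of -1.61 (SE 0.13, adjusted p = 1.67e-06, edgeR), and 0 of the 7 were upregulated, against 23.8% of all tested genes, which says little for a list of this size. Csf2rb and Csf2rb2, the β chains of the IL-3 receptor, had 0 counts in all 8 libraries.

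Genes known for transcription at the 2-cell stage were set beside the family as a group. Of 18 tested, which include Zscan4 and Tdpoz genes and Zfp352, 17 (94.4%) were upregulated, against 23.8% of all tested genes. Every KO library was above every control library in 14 of the 18, against 27.0% of all tested genes. The median log2 fold change of the 18 was 4.76 with the 5 genes at 0 in every control library set to their bound, and 6.58 as fitted. This list was put together with earlier results of these data known, so its direction is no independent evidence. Their summed level was 120, 89.9, 103 and 93.2 CPM in control and 311, 308, 768 and 786 CPM in KO replicates 1 to 4. In 17 of the 18 genes KO replicates 3 and 4 were both above KO replicates 1 and 2, the order seen for the family. This order also held for 19.7% of the tested genes with a KO mean of at least 10 CPM. Zfp352, a retrotransposed zinc finger gene, had 5, 6, 234 and 477 counts in KO replicates 1 to 4 and 1, 1, 0 and 0 in control.

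The genes most like the family across the 8 libraries were then sought among 14787 tested genes with at least 100 counts. Likeness was measured as the part of a gene's summed CPM that would have to move to other libraries to give the profile of the family sum, which was 0% for equal profiles and 56.7% for the median gene. KO replicates 1 to 4 held 9.62%, 9.18%, 37.9% and 43.0% of the summed CPM of the family. The 5 nearest genes were Gm13128 (2.32%), Tdpoz3 (2.41%), Pramef25 (3.20%), Gm12800 (3.63%) and Gm2056 (3.67%), on chromosomes 4, 3, 4, 4 and 12 and so none beside the family. They were the same 5 with a minimum of 30 counts. Gm13128 had 28, 10, 2 and 2 counts in control and 142, 235, 850 and 1679 in KO replicates 1 to 4. Tdpoz3, which encodes a protein with TRAF and POZ domains, had 0, 1, 0 and 0 counts in control and 34, 72, 240 and 455 in KO libraries. Pramef25, a PRAME-like gene, was the most abundant by counts, with 23, 10, 9 and 10 in control and 362, 560, 2355 and 4364 in KO libraries. Gm12800 had 7, 1, 0 and 4 counts in control and 236, 333, 1154 and 2384 in KO libraries. Gm2056 had 2, 0, 0 and 2 counts in control and 41, 51, 244 and 465 in KO libraries. In each of them KO replicates 3 and 4 were several-fold above KO replicates 1 and 2, as in the Usp17l genes. These profiles share their libraries with the family, so their likeness is a description of these 8 libraries.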

How the data were processed

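The authors depleted ribosomal RNA, read 150-base pairs, ran the nf-core/rnaseq pipeline with STAR 2.6.1d on GRCm38 and deposited raw counts per gene. The submitters' processing notes also name edgeR 3.11. Labels name a total RNA kit and the methods an mRNA kit. The Usp17l members and all lists were chosen with earlier results of these data known. Counts were tested with edgeR 4.0.16 in R 4.3.3 as in the report, with Benjamini-Hochberg adjustment and no covariates, and genotypes came from the labels. The study used edgeR's exact test, which was an alternative here, as was DESeq2 1.42.0. On simulated counts of 19241 genes with 200 changed 4-fold, the quasi-likelihood test recovered 191 with 9 false calls. Every pair of libraries in a group differed by more than sampling noise (chi-square per degree of freedom of at least 7.85). Named genes were the members, at most 6 called genes per list and direction by fold change, Cnot7, Cnot8 and the 5 nearest profiles. Neighbours, cell markers and listed genes that were not called were named after their values were seen. Positions and transcripts came from GENCODE vM21 and promoters from RefSeq, with Biopython 1.88 for alignment. One listed substrate gene is not reported here.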

Additional observations from a re-analysis of the deposited data

Results flagged for a closer look

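In groups of 4 libraries, a library was picked out where its gap to the nearest other library was above Dixon's 95% critical share of the group's range. This held in 7 of 56 groups. Chance would give about 2.8 for independent groups, but the genes share their libraries. No group of Usp17l genes was picked out, but the rule misses a split into 2 low and 2 high libraries. The control groups of Usp17la and Usp17ld, at 0 throughout, were left out. A group with counts in 1 library alone is always picked out, as for Usp18 and Tdpoz3 in control. Control replicate 1 was high for Usp15 (761 CPM, the others 530 to 537), Usp26 (11.4 CPM, the others 8.16 to 8.45), Cnot7 (1050 CPM, the others 886 to 900) and Usp18 (0.0535 CPM, the others 0). KO replicate 2 was high for Usp18 (0.824 CPM, the others 0.109 to 0.204), and KO replicate 4 was low for Rce1 (14.6 CPM, the others 19.8 to 20.5). Control replicate 2 had the only control count of Tdpoz3 (0.0493 CPM).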

How the results depend on the processing

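With library size alone, the upregulated genes numbered 5641 and the downregulated ones 588 (4582 and 1263 with TMM), 10 other ubiquitin-specific proteases were upregulated and 0 other deubiquitinases downregulated. With TMM on genes of at least 10 CPM the counts were 5494, 628, 10 and 0. Without a fold threshold 5997 of the 19241 tested genes were higher and 4631 lower. Of the 51 other ubiquitin-specific proteases 15 were then higher and 23 lower, and of the 39 other deubiquitinases 17 were lower. Requiring 1 CPM in 4 libraries left 2882 upregulated genes and 7 upregulated neighbours. Leaving out 1 library at a time gave 4232 to 4603 upregulated and 1032 to 1430 downregulated genes, 6 to 8 and 2 to 4 other ubiquitin-specific proteases, 4 and 1 other deubiquitinases, 14 to 17 neighbours and a KO mean of the family sum of 216 to 345 CPM. Without control replicate 3, 4 other ubiquitin-specific proteases were downregulated. Without control replicate 1 and KO replicate 4, an alternative chosen after seeing the data because they deviated together (r = 0.372), 0 other deubiquitinases were downregulated. With a floor of 3 counts over the pooled control group, Usp17la was at least 342-fold and Usp17ld at least 101-fold higher. The family sum was above the floor in control, so no bound was computed. All other values, 127 of comparisons and 41 of single genes, moved by at most 1.5 times for counts or by less than 1 SD for levels. Leaving out 1 of 4 KO libraries cannot move a KO mean by 1 SD, apart from rescaling. For those fits the SD measure therefore says nothing about stability. Without KO replicate 4, the KO mean of Usp17ld went from 3.53 to 1.16 CPM. The cause of the changes was not tested beyond what each setting removes.

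Replicate numbers did not pair the libraries, as same-numbered libraries correlated at -0.0719, -0.0418, 0.11 and -0.121 in their deviations. With the replicate number as a block, 4316 genes were upregulated and 1254 downregulated, and the proteases counted above stayed at 6, 2, 4 and 1. At 3 counts, the detection floor lay between 0.0802 and 0.326 CPM, which limits Usp17ld, Usp18, Ifih1 and most neighbours.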
